A study of Mus musculus with 2 samples.

Results

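CDK inhibitors are small proteins that bind cyclin-dependent kinases (CDKs) and hold cells before DNA replication, and the mouse genome encodes 7 of them. Their genes (Cdkn1a, Cdkn1b, Cdkn1c, Cdkn2a, Cdkn2b, Cdkn2c and Cdkn2d) were taken by symbol from the 34745 genes of an RNA-seq comparison of bone marrow LSKs, and each matched 1 gene. LSKs are lineage-negative, Sca1+ and c-Kit+ cells, the gate that holds hematopoietic stem cells and multipotent progenitors. They came from Scl/tTA-BA mice on the C57BL/6 background, in which the Scl/tTA transgene drives BCR/ABL (BA) in stem and progenitor cells and doxycycline in the drinking water keeps it off. The control group, week-0, was taken from mice of the same genotype still on doxycycline, and week-3 was taken 3 weeks after doxycycline had been withdrawn to induce BA. The groups thus differ in doxycycline as well as in BA, and the 2 cannot be told apart. In the paper, GFP driven by Scl/tTA in other mice marked only part of the LSKs at week-3. A single library stood for each group and pooled LSKs of 3 animals, so how much mice differ is not known, and each difference below compares 2 libraries. The age and sex of the mice are not given in the sources used here.

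The inhibitors form 2 families. The Cip/Kip proteins (p21 from Cdkn1a, p27 from Cdkn1b and p57 from Cdkn1c) bind complexes of cyclins with CDKs, above all those of CDK2. The INK4 proteins (p16, p15, p18 and p19 from Cdkn2a, Cdkn2b, Cdkn2c and Cdkn2d) bind CDK4 and CDK6 before a D cyclin can. Long-term stem cells divide rarely, and p57 and p27 are known for keeping them quiescent, p21 for arrest after p53 activation and stress, p18 for limiting self-renewal, and p16 for senescence. In CML, the BA kinase is known to lower p27 protein through its breakdown, which mRNA does not show.

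Reads assigned to genes numbered 6356164 at week-0 and 3886695 at week-3, so a gene at an unchanged level had 1.635 times as many reads at week-0. The authors deposited reads and FPKM (fragments per kilobase of exon, scaled to library size) for each gene. Differences are given as the log2 ratio of FPKM, week-3 over week-0, with a 95% Clopper-Pearson interval from the reads. It covers counting error alone and treats each read as independent. Where PCR copies of a cDNA are counted as separate reads, it is too narrow even for that. Genes were called higher at a ratio of at least 2 and lower at a ratio of at most 0.5, with no replicate check and no p-value. No ratio was formed where both libraries had 3 reads or fewer, since a count of 0 allows up to 3 reads.

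The 7 genes differed widely in level. At week-0, Cdkn1a had 14243 reads, Cdkn2d had 1122, Cdkn1b had 286, Cdkn2c had 50, Cdkn1c had 19 and Cdkn2b had 3. At week-3 the reads numbered 1439, 399, 204, 23, 3 and 2 in the same order of genes, and Cdkn2a had 0 reads in both libraries. Per length, as FPKM, the order was Cdkn1a, Cdkn2d, Cdkn1b, Cdkn2c, Cdkn1c and Cdkn2b at week-0, and Cdkn1c and Cdkn2b changed places at week-3. The counting intervals of FPKM did not overlap between neighbours in this order, except for those of Cdkn1c and Cdkn2b in both libraries and those of Cdkn2c and Cdkn2b at week-3. At that depth, 3 reads stood for 0.472 RPM (reads per 1000000 reads on genes) at week-0 and 0.772 RPM at week-3.

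**Figure D1:**
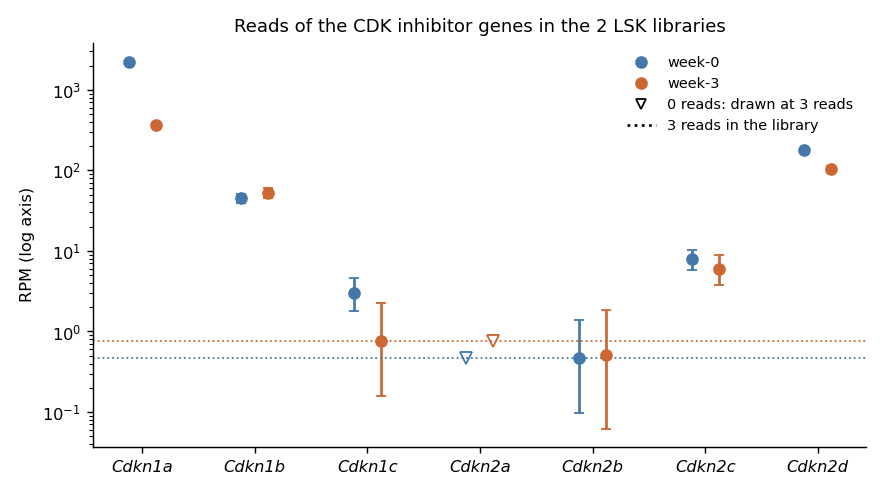
RPM (log axis) of each CDK inhibitor gene in the week-0 and week-3 libraries, 1 point per library with bars for the 95% counting interval; the scale is not per length, so heights compare within a gene. Cdkn1a lies at 2241 and 370 RPM and Cdkn2d at 177 and 103, whereas Cdkn1c at week-3 and Cdkn2b in both libraries lie at or near the dotted lines of 3 reads. Triangles mark Cdkn2a, with 0 reads, at the 0.472 and 0.772 RPM of 3 reads.

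Cdkn1a encodes p21, the inhibitor best known as the arm of p53 that stops the cell cycle. It is a protein-coding gene (ENSMUSG00000023067) on the plus strand of chromosome 17 of GRCm38, from 29090979 to 29100722, and overlaps the exons of AC167363.2 on the other strand in GENCODE M21. The cDNA kit does not keep strand, so reads of such pairs cannot be told apart. Its FPKM was 729 at week-0 and 120 at week-3. At the week-0 level, the week-3 library would have held 8709 reads of Cdkn1a, and it held 1439. The log2 ratio was -2.60 (95% interval -2.68 to -2.52), or 6.05-fold lower at week-3. Its share of all reads was 0.224% in the first library and 0.0370% in the second, and its rank by FPKM went from 67 to 463 of all genes. Among the 12082 genes with at least 20 reads over both libraries, 3.36% had a lower ratio than Cdkn1a, so its fall was large but not alone. In a bulk library, fewer cells that express a gene and less RNA per cell cannot be told apart.

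Because Cdkn1a fell most in reads, its promoter is shown at the p53 site. RefSeq (GRCm38.p6) windows from 250 bases before to 50 after each start were found for 6 of the 7 members, 9 windows in all, and were searched for an adjacent pair of the p53 binding decamer on both strands. With no mismatch, the pair was in 0.00913% of all 32851 windows and in none of the members' windows. The search was then loosened to at most 1 mismatch, which 0.113% of all windows held. Among the members, only the upstream Cdkn1a window then held it, on the plus strand, and among 8 p53 target genes with a window only that of Ccng1 did, whose window is on the minus strand of chromosome 11. Both are printed 5′ to 3′ along the gene's strand, with the matched bases in capitals.
Cdkn1a, chr17:29090923-29090952: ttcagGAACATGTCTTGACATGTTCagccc
Ccng1, chr11:40755457-40755486: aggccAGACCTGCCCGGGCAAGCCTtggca
The Cdkn1a match lies 31 bases before the first of its 2 RefSeq starts (29090979) and 2821 bases before the second (29093769). The match in Ccng1, a cyclin G gene, lies 175 bases before its start. These are matches of letters, and binding was not measured. Sites outside the windows of 300 bases were not looked for, so a gene without a match here may have one elsewhere. Ccng1, with the other match, had 103 and 76 reads and a log2 ratio of 0.27 (-0.18 to 0.71), so the 2 genes with a match differed in ratio. The Sp1 box GGGCGG, searched on both strands, was in 7 of the 9 member windows and in 35.7% of all windows. The forkhead motif TGTTTAC was in none of the 9 and in 3.65% of all windows.

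Other targets of p53 were listed to set beside Cdkn1a. Of 10, 9 had at least 20 reads, and of these 3 fell, 1 rose and 5 stayed within 2-fold, with a median log2 ratio of -0.29 against 0.07 over all 12082 genes. Of all these genes, 14.9% fell and 10.6% rose by the same limits, and every list count below is to be read beside these shares. Bbc3, which encodes the death factor Puma, had 798 and 63 reads and fell by 2.95 on the log2 scale. Phlda3, an inhibitor of Akt, fell from 75 to 7 reads (-2.71), and Sesn2, a stress-induced sestrin, from 123 to 18 (-2.06). The ratios of these 3 lay on both sides of that of Cdkn1a. Aen, a nuclease of apoptosis, rose by 1.21, and Bax and Mdm2, which encode a pore-forming death protein and the ligase of p53, had ratios of 0.70 and -0.55. Trp53 itself had 2079 and 975 reads and a log2 ratio of -0.38 (-0.49 to -0.27).

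Cdkn1a also responds to many stimuli within a short time, and early-response genes were set beside it for that reason. Like the other lists, this one was chosen with earlier results of these data known. Of 10 such genes, all with at least 20 reads, 9 fell, beside 14.9% of all 12082 genes, and the median log2 ratio was -1.66. Atf3, a stress-induced transcription factor, went from 9596 to 102 reads (-5.85), and Egr1, a growth-factor-induced one, from 41528 to 2859 (-3.15). The smallest difference was that of Fos, at -0.79, which was within 2-fold. The part of early-response induction in the fall of Cdkn1a was not tested. The 3 genes nearest to Cdkn1a in the plane of log2 FPKM at week-0 and week-3 were Klf6 (FPKM 726 and 113, distance 0.0962 on the log2 scale), Marcksl1 (692 and 109, distance 0.161) and Egr1 (869 and 97.8, distance 0.393). Likeness over 2 libraries is only a likeness of 2 values.

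Cdkn1b encodes p27 (ENSMUSG00000003031, plus strand of chromosome 6, from 134920401 to 134925513). It had 286 reads (FPKM 5.94) at week-0 and 204 reads (FPKM 6.92) at week-3. At the week-0 level, 175 reads would have been found at week-3. The log2 ratio was 0.22 (-0.04 to 0.49), and no difference was detectable at this depth. By counting error alone, the interval runs from a fall of 0.04 to a rise of 0.49 on the log2 scale, against a ratio of -2.60 for Cdkn1a. It does not cover differences between mice or the choice of scaling, and with TMM scaling the ratio of Cdkn1b was 0.11. Its nearest genes were Chd1l, Ppp1r37 and Orai1, all within 0.0241 on the log2 scale.

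Skp2, the F-box protein that marks p27 for breakdown, was low, with 31 reads (FPKM 0.440) at week-0 and 42 reads (FPKM 0.974) at week-3, and rose by 1.15 (0.44 to 1.87). Its cofactor Cks1b was abundant, at an FPKM of 189 and 218, with a log2 ratio of 0.20. Over all 12082 genes with at least 20 reads, 10.6% rose and 14.9% fell. Of 8 genes of p27 and p21 turnover, 1 rose, 1 fell and 6 stayed within 2-fold, too few to set apart from these shares. The one that fell was Rnf123, the ligase subunit Kpc1 that marks p27 outside the nucleus (247 and 75 reads, -1.01). Cul4a and Ddb1, of the ligase that marks p21, had ratios of 0.90 and 0.53, and their substrate receptor Dtl had 0.10, which turned to the other side of 0 with TMM scaling.

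The listed activators of Cip/Kip genes all had lower values at week-3. Of 10, 4 fell by 2-fold or more, beside 14.9% of all 12082 genes with at least 20 reads. The other 6 had ratios below 1, and the median log2 ratio was -0.73, against 0.07 over all these genes. Among the FoxO factors, which activate Cdkn1b, Foxo1 went from 126 to 20 reads (-1.95, interval -2.71 to -1.26) and Foxo4 from 104 to 30 (-1.08). Foxo3, the highest of them by FPKM, had 1066 and 398 reads and a ratio of -0.71 (-0.88 to -0.54). In the TGF-beta pathway, which induces several CDK inhibitors, the receptor gene Tgfbr2 fell from 368 to 92 reads (-1.29) and the effector Smad3 from 256 to 76 (-1.04). Smad4 had 149 and 85 reads and a ratio of -0.10 (-0.50 to 0.29). Cdkn1b itself had no detectable fall, and the part of the FoxO genes in its level was not tested.

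**Figure D2:**
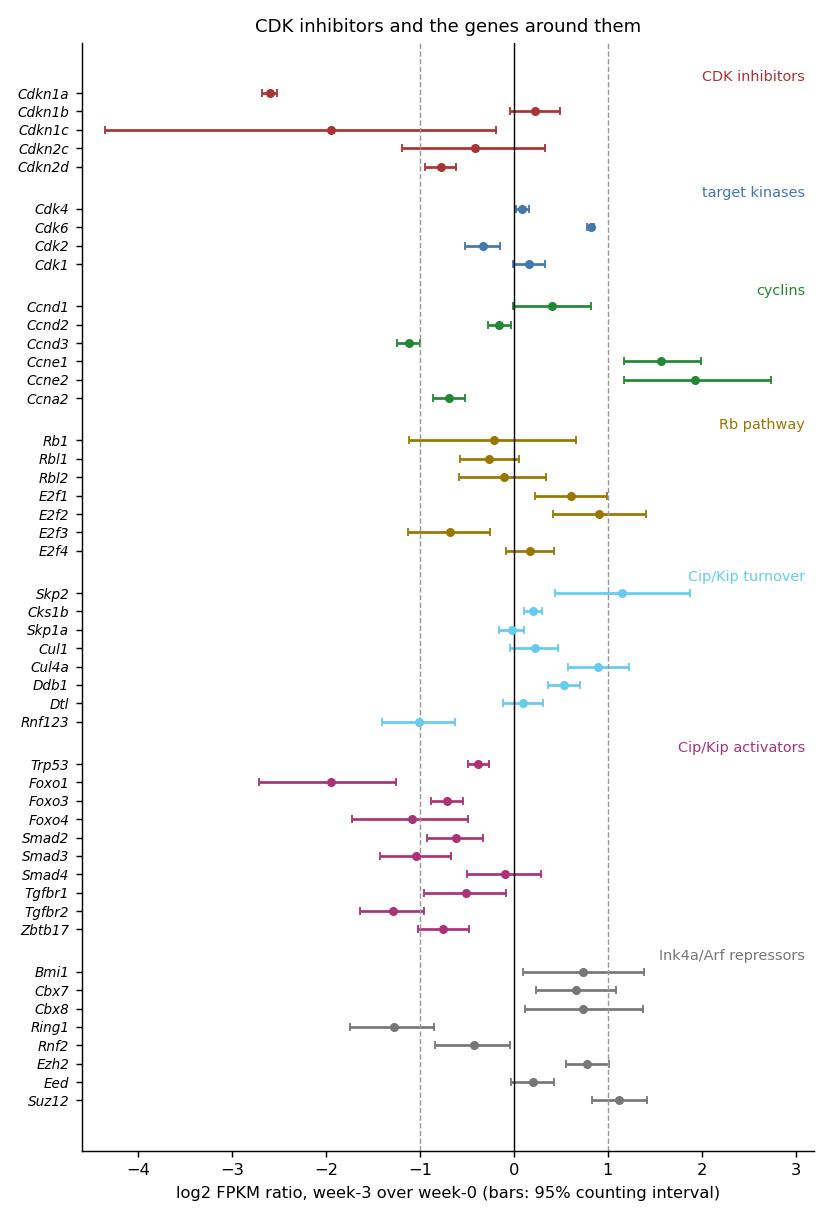
Log2 FPKM ratio, week-3 over week-0, of the 5 CDK inhibitor genes with a ratio and of 43 genes around them, 1 point per gene with bars for the 95% counting interval and dashed lines at 2-fold. Cdkn1a lies at -2.60 with a narrow bar and Cdkn1c at -1.95 with a bar from -4.35 to -0.19. All 10 points of the activators of Cip/Kip genes lie below 0, and Ccne1, Ccne2, Skp2 and Suz12 lie above 1.

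Cdkn1c encodes p57 and is expressed mainly from the maternal copy (ENSMUSG00000037664, minus strand of chromosome 7, from 143458350 to 143461050). It overlaps the antisense gene Gm44732, whose reads cannot be told apart from its own. It had 19 reads (FPKM 1.06) at week-0 and 3 reads (FPKM 0.274) at week-3, where 11.6 would have been found at the week-0 level. The log2 ratio was -1.95 with a wide interval, from -4.35 to -0.19. The gene was called lower, and counting error alone leaves a fall of between 1.14-fold and 20.4-fold. With a pseudocount of 1 FPKM the log2 ratio was -0.69 and Cdkn1c was no longer called lower. Its nearest genes were Dnah17, Bcam and Jdp2, and Bcam and Jdp2 had 4 and 3 reads at week-3.

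The neighbours of Cdkn1c in its imprinted cluster moved in both directions. Slc22a18, a transporter, fell from 109 to 22 reads (-1.60, interval -2.33 to -0.93), and Phlda2, a growth inhibitor of the placenta, from 40 to 11 (-1.15, interval -2.26 to -0.16). Kcnq1ot1, the RNA of the paternal copy that silences the cluster in cis, had 707 and 936 reads (FPKM 1.32 and 2.85) and rose (1.11, interval 0.97 to 1.26), though it lies antisense within Kcnq1 and strand was not kept. Of the other 3 on the list, Kcnq1 and H19 had 0 reads in both libraries and Igf2 had 0 and 1.

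As background, p57 is known to be highest in quiescent stem cells, so genes of long-term stem cells were set beside it. Of 12, 11 had at least 20 reads, and 6 of these fell, 1 rose and 4 stayed within 2-fold, with a median log2 ratio of -1.10. With TMM or median-of-ratios scaling, 8 fell. Without such scaling, the shares over all 12082 genes were 14.9% lower and 10.6% higher. Ndn, a growth suppressor of quiescent stem cells, went from 56 to 4 reads (-3.10), and Fgd5, a stem cell marker, from 47 to 3 (-3.26). The one that rose was Slamf1, the marker CD150, on 10 and 15 reads (1.29, interval 0.04 to 2.61). The part of a smaller share of long-term stem cells among LSKs in the fall of Cdkn1c was not tested.

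**Figure D3:**
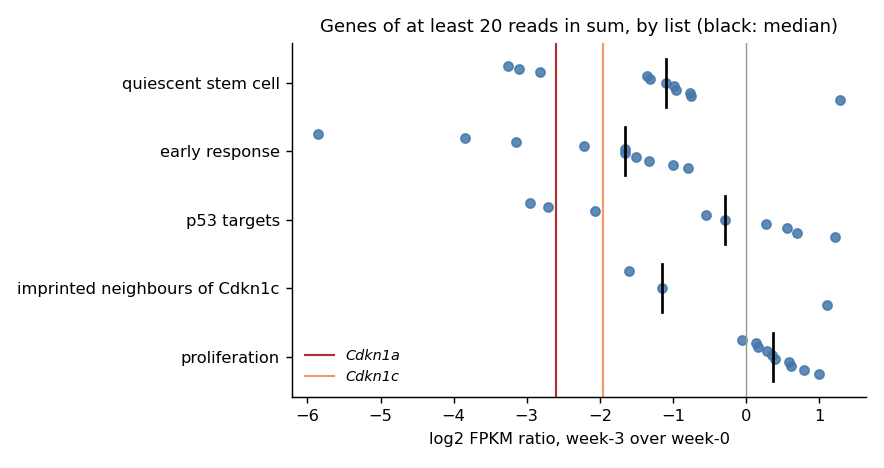
Log2 FPKM ratio, week-3 over week-0, of the genes with at least 20 reads in 5 lists, 1 point per gene, with a black bar at the median of each list and vertical lines at Cdkn1a (-2.60) and Cdkn1c (-1.95). The medians are -1.10 for genes of quiescent stem cells, -1.66 for early-response genes, -0.29 for p53 targets, -1.15 for the imprinted neighbours of Cdkn1c and 0.37 for proliferation genes.

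In the INK4 family, Cdkn2d had the highest FPKM. It encodes p19Ink4d (ENSMUSG00000096472, minus strand of chromosome 9, from 21288463 to 21291209), an inhibitor of CDK4 and CDK6. It had 1122 reads (FPKM 139) at week-0 and 399 reads (FPKM 80.8) at week-3, against 686 at the week-0 level. The log2 ratio was -0.78 (-0.95 to -0.62), so the counting interval lay below 0 but the level stayed within 2-fold. Ordered from the largest fall, it was number 2295 of the 12082 genes. The nearest genes were Tspan13 (FPKM 143 and 82.1), Wbp5 (136 and 85.4) and Cd81 (135 and 72.5).

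Cdkn2c encodes p18 (ENSMUSG00000028551, minus strand of chromosome 4, from 109660876 to 109667189). It had 50 reads (FPKM 2.78) at week-0 and 23 reads (FPKM 2.09) at week-3, with a log2 ratio of -0.41 (-1.19 to 0.33), so no difference was detectable at this depth. Its nearest genes were Lgals8, Slc16a11 and Elf4. Cdkn2b, which encodes p15 (ENSMUSG00000073802, minus strand of chromosome 4, from 89306289 to 89311032), had 3 and 2 reads, and Cdkn2a (ENSMUSG00000044303, same strand, from 89274471 to 89294653), which encodes p16 and the p53 activator p19Arf, had 0 and 0. The 0 reads of Cdkn2a allow up to 0.472 RPM at week-0 and 0.772 at week-3. With so few reads, neither gene could show a difference. How the authors treated reads that match both of these neighbouring paralogs is not given in the sources used here.

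Polycomb proteins are known to silence the locus of Cdkn2a and Cdkn2b. Among all 12082 genes with at least 20 reads, 10.6% rose and 14.9% fell. Of 8 Polycomb genes, 1 rose, 1 fell and 6 stayed within 2-fold, too few to set apart from these shares. Their median log2 ratio was 0.70, against 0.07 over all genes. Suz12, a subunit of the H3K27 methyltransferase complex, rose from 171 to 228 reads (1.12, interval 0.83 to 1.42), and its catalytic partner Ezh2 had a ratio of 0.78 (0.55 to 1.01). Bmi1, needed for stem cell self-renewal through this locus, had 43 and 44 reads and a ratio of 0.74 (0.10 to 1.38). The one that fell was Ring1, a ubiquitin ligase of the other complex (215 and 54 reads, -1.28).

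Of the 5 members with a ratio, 2 were called lower, Cdkn1a and Cdkn1c, and none was called higher. Over all 15377 genes above 0 in both libraries, 16.2% were lower by these limits and 14.2% were higher. These 5 members are also those with at least 20 reads over both libraries, and among the 12082 such genes the shares were 14.9% lower and 10.6% higher. With so few members, the count says little about the family, and Cdkn1c reached the limit on few reads. When the counting interval also had to exclude 0, the same 2 members were lower, beside 11.5% of all genes. When edgeR's exact test with an assumed biological coefficient of variation of 0.1 also had to pass, Cdkn1a alone was lower, beside 10.1% of all genes, and with a coefficient of 0.4 no member was, beside 0.566%. With limits of 1.5 and 0.67, Cdkn2d was lower too, making 3 members, beside 25.6% of all genes. In none of these settings was a member called higher.

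**Figure D4:**
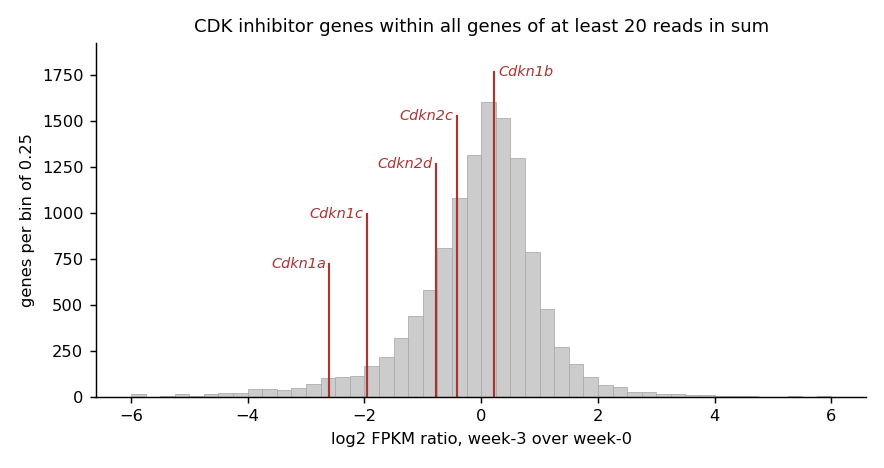
Histogram of the log2 FPKM ratio, week-3 over week-0, of the 12082 genes with at least 20 reads over both libraries, in bins of 0.25, with red lines at the 5 CDK inhibitor genes. 3 genes above 6 and 9 below -6 are drawn in the end bins. Cdkn1b (0.22) lies near the median of all genes, and Cdkn1a (-2.60) lies in the lower tail.

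The summed FPKM of the 7 genes was 878 before and 211 after induction, and this was mostly the fall of Cdkn1a. Cdkn1a made up 83.0% of it at week-0 and 57.1% at week-3, while Cdkn2d made up 15.8% and 38.3%. The Cip/Kip family went from an FPKM of 736 to 128 and the INK4 family from 142 to 83.2. The share of Cdkn1b went from 0.676% to 3.28%. Such comparisons between genes depend on the length behind the deposited FPKM, which differed from the merged exons of GENCODE M21 in both directions. It was 3074 bases against 3553 for Cdkn1a and 1271 against 1574 for Cdkn2d. For Cdkn1b the FPKM imply 7580 bases of exon, more than the 5113 bases from its start to its end, against 4552 when exons are merged. With reads divided by merged exon length, the shares of Cdkn1a were 83.3% and 56.7%, those of Cdkn2d 14.8% and 35.5%, and those of Cdkn1b 1.31% and 6.27%. The ratio of a gene between the libraries does not depend on its length.

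**Figure D5:**
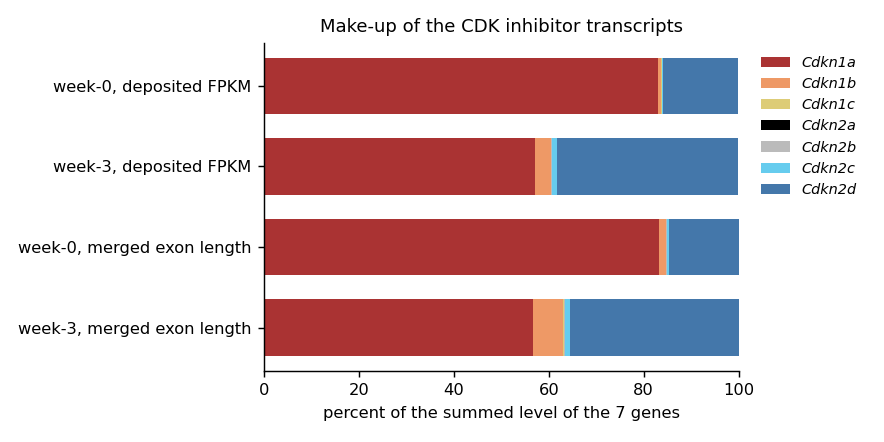
Percent of the summed level of the 7 CDK inhibitor genes taken by each gene, in the week-0 and week-3 libraries, from the deposited FPKM and from reads per merged exon base. Cdkn1a takes 83.0% and 57.1% of the deposited FPKM, and the remainder is mostly Cdkn2d. Cdkn2a, at 0, has no bar.

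The kinases that these proteins inhibit stayed within 2-fold. The paper, with edgeR, a fold limit of 2 and a q-value under 0.05, names Cdk6 among the upregulated genes of its cell cycle network. Its call thus differs from the one here, which uses the FPKM ratio alone. Cdk6 had 13628 and 14674 reads and a log2 ratio of 0.82 (0.78 to 0.85), and Cdk4 had 4276 and 2782 reads and a ratio of 0.09 (0.02 to 0.16), which turned to the other side of 0 with TMM scaling. Cdk2 had 736 and 357 reads and a ratio of -0.33 (-0.52 to -0.15). The quotient of Cdkn2d over the sum of Cdk4 and Cdk6, in FPKM, was thus 0.602 at week-0 and 0.243 at week-3. That of Cdkn1a over Cdk2 was 15.3 and 3.19. With merged exon lengths, these quotients were 0.311 and 0.133 and 33.9 and 7.06, so the level of each depends on the length used and the direction does not. mRNA quotients are not protein quotients.

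Among cyclins, the partners of the inhibited kinases, 2 of 6 rose and 1 fell, beside 10.6% and 14.9% of all 12082 genes. The E cyclins that activate CDK2 were low and rose, Ccne1 from 78 to 142 reads (1.57) and Ccne2 from 21 to 49 (1.93). The paper likewise lists both as upregulated in its cell cycle network. Ccna2, the A cyclin on the list, had a higher FPKM (25.7 and 15.9) and a ratio of -0.69 (-0.86 to -0.52), within 2-fold. Ccnd3, a D cyclin that pairs with CDK4 and CDK6, fell from 2473 to 697 reads (-1.12), while Ccnd1 (0.41) and Ccnd2 (-0.16) stayed within 2-fold. All 7 genes of the Rb pathway, through which INK4 proteins act, stayed within 2-fold, with ratios from -0.68 for E2f3 to 0.91 for E2f2. The paper names E2f2 as upregulated too, which differs from the call here. None of 10 proliferation genes was past 2-fold, 9 had ratios above 1, and their median of 0.37 compares with 0.07 over all genes. The highest was Ccnb1, a mitotic cyclin, just inside the limit (interval 0.80 to 1.19), and Mki67, the marker of cycling cells, had 1103 and 646 reads and a ratio of -0.06 (-0.20 to 0.08).

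The gate was checked by its markers. Kit and Ly6a, which encode c-Kit and Sca1, had FPKM of 16.9 and 19.8 at week-0 and 11.5 and 14.8 at week-3. Of 6 LSK markers, Flt3 fell (-2.02), Myb rose (1.08, but within 2-fold with TMM scaling) and 4 stayed within 2-fold. These 4 were all lower at week-3, with counting intervals below 0: Kit (-0.55), Ly6a (-0.42), Cd34 (-0.61) and Gata2 (-0.54). The median log2 ratio of the list was -0.54. Genes listed as markers of other lineages differed between the libraries. The summed FPKM of 10 granulocyte genes was 2032 at week-0 and 10975 at week-3, with 9 higher. The highest of them, Elane, Ctsg, Prtn3 and Mpo, already had FPKM of 933, 380, 189 and 309 at week-0. At week-3 these were 5143, 2810, 1087 and 988, while Itgam had 0.655 and 1.07 (ratio 0.71, interval -0.07 to 1.49). The summed FPKM of 7 mast cell genes was 124 and 3181, with 5 higher and Tpsb2 at 0 at week-0. All 5 erythroid genes were lower (summed FPKM 555 and 32.3), as were 3 of the 5 B and plasma cell genes with at least 20 reads (345 and 81.7 over 7 genes), and the 4 T cell genes were near 0 in both (0.972 and 0.296). Which of the sorted cells these reads came from, and the part of such cells in the levels of the CDK inhibitor genes, were not tested.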

How the data were processed

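BM LSKs were profiled by RNA-seq as 1 library per time point. Per the paper's methods and the submitters' processing notes, the authors amplified cDNA by SMARTer, trimmed paired-end reads and mapped them to GRCm38 (mm10) with TopHat2 2.0.9. The authors deposited counts, whole reads per gene without normalization, and FPKM, which they had scaled by exon length and total reads. The counting tool and annotation release are not given in the sources used here. The depth was 6356164 and 3886695 reads, and a count of 0 allows up to 3 reads.

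The tables were joined by gene identifier, and no column of other samples was present. With 1 library per time point no replicate test can be made, so genes were described by the FPKM ratio without a pseudocount, limits of 2 and 0.5, and exact Clopper-Pearson 95% intervals. edgeR 4.0.16 (exact test, Benjamini-Hochberg q under 0.05, assumed coefficients of 0.1 and 0.4) compares the libraries only and was an alternative, as were TMM and the size factors of DESeq2 1.42.0, pseudocounts of 1 and 0.1, limits of 1.5 and 0.67, and a minimum of 20 reads. Lists are described by counts and medians. Exon lengths came from GENCODE M21: the length implied by the FPKM equalled the sum of distinct exons within 0.5% in 69.0% of 12166 genes and the merged exons in 12.2%. R 4.3.3 and Python 3.11.15 were used, with matplotlib 3.10.9, scipy 1.17.1, pandas 2.3.3 and numpy 2.4.6. The code for the ratios, limits and intervals was run on simulated counts with counting error alone. Such counts hold no PCR copies and no differences between mice, so the run checks the code and not the calls in these data.

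The members and lists were chosen with earlier results of these data known. Named genes are the members, genes of the lists that are past 2-fold or named for their role, and the 3 genes nearest to each member with at least 20 reads in sum.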

Additional observations from a re-analysis of the deposited data

How the results depend on the processing

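No paired analysis was possible because each time point is 1 library, and no replicate could be left out for the same reason. TMM and median-of-ratios scaling lowered every log2 ratio by 0.11 and 0.09, so that of Cdkn1a was -2.71 and -2.69, outside its counting interval. With a pseudocount of 1 FPKM, 1 member was called lower, Cdkn1c being lost at -0.69, and 1 of the 87 counted genes of the pathway lists (marker lists of other cells and of LSKs not included) was higher instead of 7. With edgeR's exact test at a coefficient of 0.1, 1 member was called lower. At a coefficient of 0.4, 0 members were, and of the pathway genes 2 were lower instead of 28 and 0 higher. With limits of 1.5 and 0.67, 20 of these were higher. Of all 15377 genes above 0 in both libraries, 16.2% were lower and 14.2% higher at 2-fold, and 0.566% were lower at a coefficient of 0.4. The share of all genes that was higher was not computed with the pseudocount, the exact test or the limits of 1.5 and 0.67. These counts therefore show only how the lists depend on the setting. As shares of reads and not per length, Cdkn1a made up 90.6% of the family at week-0 and 69.5% at week-3, Cdkn1b 1.82% and 9.86%, and Cdkn2d 7.14% and 19.3%. With merged exon lengths, an alternative chosen after seeing the data, the week-0 shares were 1.31% for Cdkn1b, 0.194% for Cdkn1c and 14.8% for Cdkn2d, and the week-3 share of Cdkn1b was 6.27%. The other 61 of 80 alternatives moved by less than counting error, or by at most 1.5 times for counts, and no called ratio changed sign. Depth limits Cdkn1c, Cdkn2a, Cdkn2b and Cdkn2c most.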

Other observations

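A further 5 genes carry related names without encoding CDK inhibitors of the Cip/Kip or INK4 families, and they were looked up after the data had been seen. Cdkn2aip, whose protein binds p19Arf, had 394 reads (FPKM 17.7) at week-0 and 69 reads (FPKM 5.08) at week-3, a log2 ratio of -1.80 (95% counting interval -2.19 to -1.43). Cdk2ap1, which encodes a partner of CDK2, had 153 and 205 reads and a ratio of 1.13 (0.82 to 1.44). Cdk2ap2 (1387 and 1210 reads, 0.51), Cdkn2aipnl (546 and 372 reads, 0.16) and Cdkn3, a phosphatase of CDKs (163 and 93 reads, -0.10), stayed within 2-fold.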
